A study of Mus musculus with 23 samples.

Results

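The interleukin 1 system on the nCounter Mouse Neuroinflammation panel comprised 7 genes, taken as every row of the count table whose gene name was Il1a, Il1b, Il1r1, Il1r2, Il1rap, Il1rn or Il1rl2. All 7 were found among the 770 genes of the panel. They were measured in cortical RNA from 23 mice in 4 groups, named Dox+LPS (n = 6, 3 males and 3 females), LPS (n = 5, 3 males and 2 females), Dox (n = 4, 1 male and 3 females) and Untreated (n = 8, 6 males and 2 females). The study asked whether an antibiotic used to switch transgenes off alters the inflammatory response of the brain.

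Every mouse was a WT animal of the B6FVB strain, aged 12 weeks, from the CamKIIα-TTA/tetO-APP102 x FVB line. Being WT, none carried either transgene of that line, the transactivator under the CaMKIIα promoter of forebrain neurons or the APP gene it drives. The Dox and Dox+LPS mice had eaten chow with doxycycline (dox) at 100 mg/kg from postnatal day 3 to the age of 6 weeks, first through their dams, and then plain chow for 6 weeks. The LPS and Untreated mice never received dox. The LPS and Dox+LPS mice were injected intraperitoneally with lipopolysaccharide, the outer membrane component of Gram-negative bacteria, at 2 mg/kg and harvested 18 hours later. Per the study's methods the Dox and Untreated mice were injected with saline, so "Untreated" here refers to mice with neither drug, and all mice were perfused with buffer before the cortex was taken.

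Interleukin 1 is a cytokine signal of innate immunity that drives fever, sickness behavior and the activation of glia and vessels in the inflamed brain. Il1a and Il1b encode its 2 agonists, interleukin 1 alpha and beta, which bind the receptor encoded by Il1r1. That complex then recruits the accessory protein encoded by Il1rap, and the adaptor MyD88 carries the signal to NF-kB. The system also holds its own brakes. Il1r2 encodes a decoy receptor that binds the agonists but lacks the intracellular signalling domain, and Il1rn encodes the receptor antagonist, which occupies Il1r1 without recruiting the accessory protein. Il1rl2 encodes a related receptor, for the IL-36 cytokines, which uses the same accessory protein.

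The members lie in 3 places of the mouse genome. In the RefSeq annotation Il1r2, Il1r1 and Il1rl2 follow one another on chromosome 1 with 0 protein-coding genes between neighbours, and so do Il1a and Il1b on chromosome 2. Il1rn is on chromosome 2 as well, 1093 protein-coding genes away from Il1a, and Il1rap is on chromosome 16. RefSeq promoter windows of build GRCm38.p6, from 250 bases before to 50 bases after each annotated start, were found for all 7 genes. Those of both agonists, of the decoy receptor and of 1 annotated start of the receptor antagonist are shown because these are the genes with the largest changes in the results. Capitals mark matches on either strand to 3 motifs, the TATA box (TATAAA), the NF-kB type (GGGNNNNNCC) and the AP-1 type (TGANTCA).
Il1a, chr2:129309923-129310222, minus strand: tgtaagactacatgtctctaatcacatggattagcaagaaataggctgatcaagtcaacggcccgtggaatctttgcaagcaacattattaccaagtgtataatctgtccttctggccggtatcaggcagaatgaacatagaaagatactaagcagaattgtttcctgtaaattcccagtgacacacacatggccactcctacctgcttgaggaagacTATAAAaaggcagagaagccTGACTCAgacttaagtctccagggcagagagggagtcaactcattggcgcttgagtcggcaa
Il1b, chr2:129371090-129371389, minus strand: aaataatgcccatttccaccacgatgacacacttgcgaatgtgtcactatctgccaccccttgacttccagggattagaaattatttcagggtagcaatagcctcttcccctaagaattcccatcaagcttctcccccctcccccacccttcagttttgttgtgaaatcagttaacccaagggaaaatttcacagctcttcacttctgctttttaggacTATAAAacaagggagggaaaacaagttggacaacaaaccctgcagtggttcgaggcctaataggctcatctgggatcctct
Il1r2, chr1:40085843-40086142, plus strand: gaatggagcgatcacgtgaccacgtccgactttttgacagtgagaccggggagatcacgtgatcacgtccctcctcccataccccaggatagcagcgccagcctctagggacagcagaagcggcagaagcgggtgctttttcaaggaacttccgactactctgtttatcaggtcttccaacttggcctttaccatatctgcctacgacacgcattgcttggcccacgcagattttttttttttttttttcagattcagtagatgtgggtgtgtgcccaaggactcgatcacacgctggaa
Il1rn, the last of 3 annotated starts, chr2:24345121-24345420, plus strand: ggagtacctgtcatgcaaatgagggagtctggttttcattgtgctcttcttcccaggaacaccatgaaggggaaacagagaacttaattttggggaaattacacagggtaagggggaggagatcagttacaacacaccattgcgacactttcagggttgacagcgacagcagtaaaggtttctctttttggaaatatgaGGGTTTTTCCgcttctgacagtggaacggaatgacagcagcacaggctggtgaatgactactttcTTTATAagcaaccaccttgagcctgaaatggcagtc

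In both agonist windows the TATA box began 32 bases (Il1a) and 31 bases (Il1b) before the start, and Il1a had an AP-1 type match beginning 12 bases before it. The Il1r2 window held none of the 3 motifs. In the Il1rn window shown, an NF-kB type match began 51 bases before the start, and the capitals TTTATA, from 14 bases after it, are a TATA box match on the other strand. The Il1rn windows not shown differ, the first with 2 NF-kB type matches and 1 AP-1 type match, the second with 1 NF-kB type match. The window of Il1rap, also not shown, held 6 NF-kB type matches, some of them overlapping. A link of motifs to changes after LPS was not tested. A TATA box match was present in 13.6% of the 32851 RefSeq windows, an NF-kB type match in 50.8% and an AP-1 type match in 7.81%. Which start of Il1rn the probe's transcript uses was not analysed here.

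Panel totals ran between 645971 and 804471 counts per mouse. Background, set for each mouse 2 SD above the mean of its 8 negative control probes, ran between 15.4 and 29.8 counts, and 609 to 694 genes lay above it. Values below are normalized counts, that is counts brought to a common library size by the upper quartile, and levels of different genes are not compared because probes differ in efficiency. All 11 LPS-injected mice were read at stage position 1 of the instrument and all 12 saline-injected mice at position 2. The column names of the counts split the mice in the same way, into Baylor 1 and Baylor 2. Neither stage position nor this label can be told apart from LPS. As bulk cortex was measured, more RNA per cell and more cells of a type cannot be told apart either.

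After LPS, both agonists, the signalling receptor Il1r1, the decoy receptor Il1r2 and the receptor antagonist Il1rn rose, whether or not the mice had been on dox, while the accessory protein and Il1rl2 did not pass the threshold. A gene was called changed at an adjusted p under 0.05 in edgeR's quasi-likelihood test and an absolute log2 fold change above 0.5. In Dox+LPS against Dox 5 of 7 members were called higher, where 19.5% of all 770 genes were, and none was called lower, where 7.01% of genes were. In LPS against Untreated 5 of 7 were called higher, against 16.8% of all genes, and none lower, against 5.97%. The median log2 fold change of the 7 members was 1.62 in Dox+LPS against Dox, where that of all genes was -0.07, and 1.48 in LPS against Untreated, where that of all genes was -0.04. Il1b, Il1r2 and Il1rn were above background in no saline-injected mouse. With these 3 put at the mean after LPS over the mean saline-injected background, the medians were 1.07 and 0.88. The 1.07 is the value of Il1rn, whose mean includes 1 Dox+LPS mouse far above the others.

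**Figure D1:**
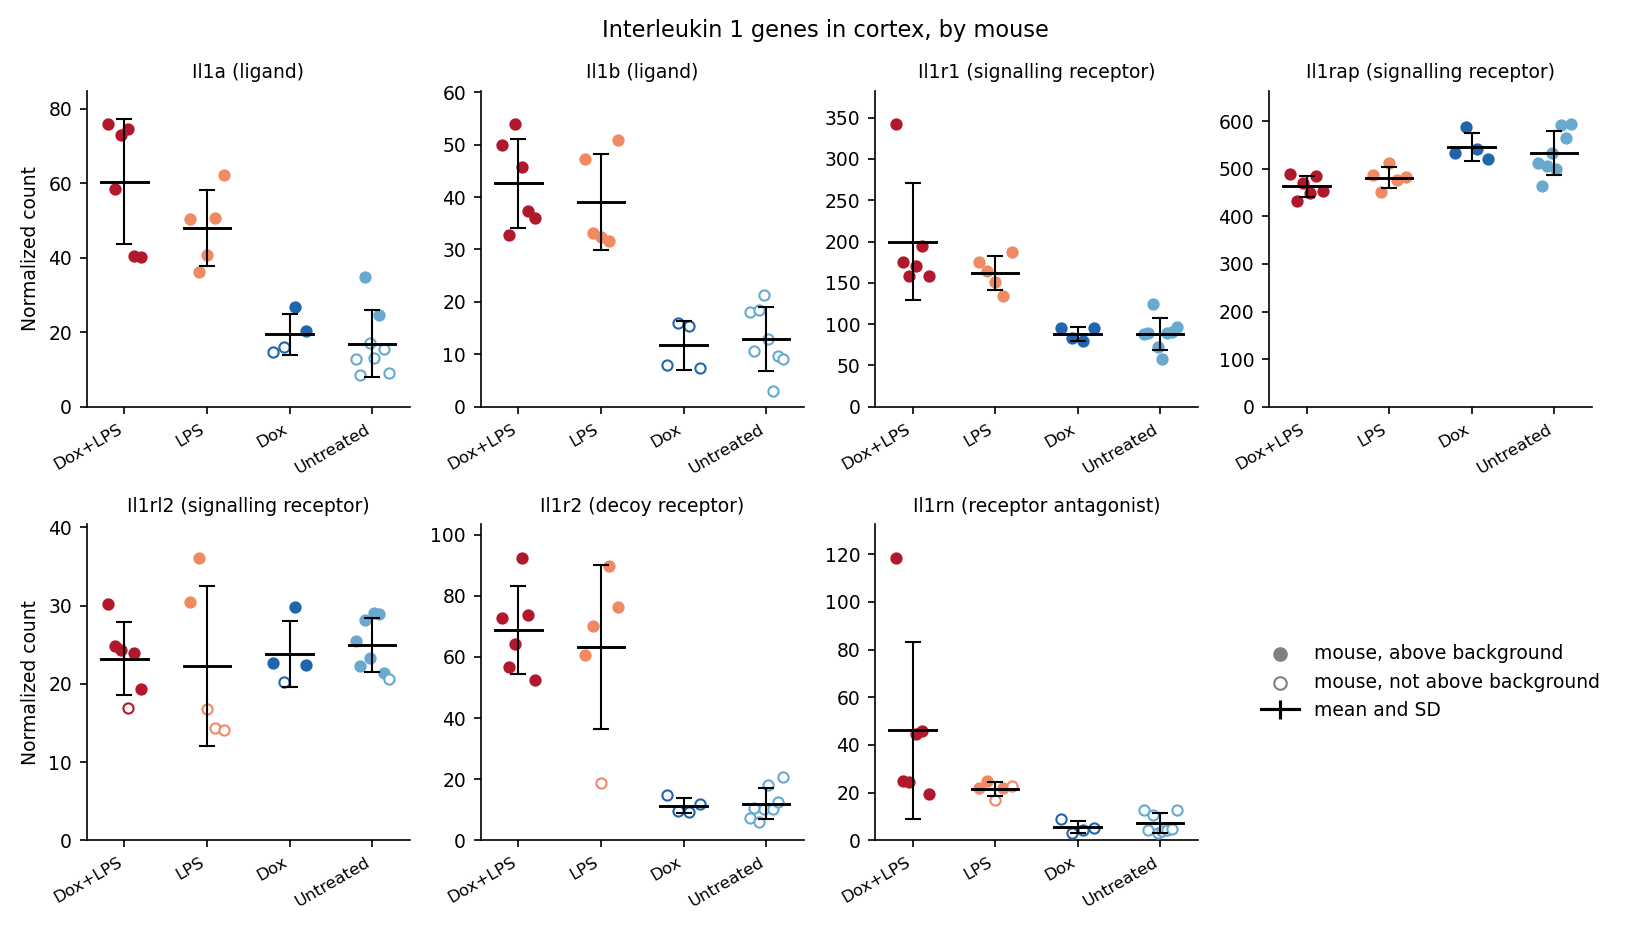
Normalized counts of the 7 interleukin 1 genes (y axis, from 0) in each mouse of the Dox+LPS, LPS, Dox and Untreated groups. Filled points are mice above background, open points mice not above it, and black bars the mean and SD. Il1b, Il1r2 and Il1rn were above background in none of the saline-injected mice.

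Il1a was the agonist with measurable signal in some saline-injected mice. It stood at a lowest of 40.3, a median of 65.8 and a highest of 75.8 in the Dox+LPS mice, against 14.7, 16.0, 26.8 and 20.2 in the Dox mice. In the LPS mice the values were 50.3, 36.1, 40.8, 50.7 and 62.4, against a lowest of 8.50, a median of 14.3 and a highest of 35.0 in the Untreated mice. Neither pair of groups overlapped, although the lowest LPS mouse lay only just above the highest Untreated mouse. The latter, Untreated replicate 3, also had the highest Il1r1 of its group, 124. Il1a was above background in all 11 LPS-injected mice, in 2 of 4 Dox mice and in 2 of 8 Untreated mice. Its log2 fold change was 1.62 in Dox+LPS against Dox (SE 0.30, adjusted p = 6.3e-05, edgeR) and 1.48 in LPS against Untreated (SE 0.26, adjusted p = 3.6e-05, edgeR).

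Il1b, the agonist released after cleavage by caspase-1, was under background in every mouse that had not received LPS. It had a lowest of 32.8, a median of 41.6 and a highest of 53.9 in the Dox+LPS mice, against 7.91, 16.0, 15.4 and 7.46 in the Dox mice. The LPS mice had 47.2, 33.2, 32.4, 31.5 and 50.9, against a lowest of 3.10, a median of 11.8 and a highest of 21.3 in the Untreated mice. The groups did not overlap in either pair. The fitted log2 fold change was 1.84 in Dox+LPS against Dox (SE 0.31, adjusted p = 1.9e-05, edgeR) and 1.58 in LPS against Untreated (SE 0.25, adjusted p = 1.2e-05, edgeR). Set against the mean background of the saline-injected mice instead, which gives a lower limit, Il1b was at least 1.93-fold higher in Dox+LPS than in Dox and at least 1.94-fold higher in LPS than in Untreated mice.

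Il1r1, the receptor through which both agonists signal, was above background in all 23 mice and rose in both comparisons. It stood at a lowest of 158, a median of 173 and a highest of 342 in the Dox+LPS mice, against 94.9, 83.2, 79.3 and 94.9 in the Dox mice. The LPS mice had 175, 164, 151, 134 and 187, against a lowest of 58.0, a median of 89.0 and a highest of 124 in the Untreated mice. Again neither pair overlapped, and 1 mouse, Dox+LPS replicate 1, stood far above the rest of its group. The log2 fold change was 1.18 in Dox+LPS against Dox (SE 0.20, adjusted p = 2.6e-05, edgeR), or 0.96 without that mouse, and 0.88 in LPS against Untreated (SE 0.17, adjusted p = 0.000135, edgeR).

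Il1rap, whose product joins the occupied receptor, moved the other way by a small amount. It averaged 463 ± 22.2 in the Dox+LPS mice (SD, n = 6), against 546 ± 29.1 in the Dox mice (SD, n = 4), and these groups did not overlap. It averaged 481 ± 22.0 in the LPS mice (SD, n = 5), against 533 ± 46.4 in the Untreated mice (SD, n = 8), and these did overlap. The log2 fold change was -0.24 in Dox+LPS against Dox (SE 0.062, adjusted p = 0.00232, edgeR) and -0.15 in LPS against Untreated (SE 0.055, adjusted p = 0.0283, edgeR). An adjusted p under 0.05 was reached by 56.0% of all genes in Dox+LPS against Dox and by 51.9% in LPS against Untreated, and Il1rap stayed inside the fold threshold in both. The p depended on the scaling. In Dox+LPS against Dox the log2 fold change of Il1rap was -0.17 with TMM (adjusted p = 0.0196) and -0.18 with RLE (adjusted p = 0.0149), but -0.10 with the housekeeping genes (adjusted p = 0.215), where the median of all genes was 0.07 in place of -0.07, and -0.14 with the positive controls (adjusted p = 0.237). In LPS against Untreated the adjusted p was 0.104 with TMM, 0.0706 with RLE, 0.251 with the housekeeping genes and 0.778 with the positive controls (edgeR throughout).

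Il1rl2, the IL-36 receptor, lay near background. It averaged 23.2 ± 4.64 in the Dox+LPS mice, 22.3 ± 10.2 in the LPS mice, 23.8 ± 4.19 in the Dox mice and 24.9 ± 3.46 in the Untreated mice (SD). It was above background in 5 of 6 Dox+LPS, 2 of 5 LPS, 3 of 4 Dox and 7 of 8 Untreated mice. The 95% interval of the log2 fold change ran from -0.49 to 0.41 in Dox+LPS against Dox and from -0.56 to 0.23 in LPS against Untreated. Changes inside these bounds remain possible.

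Il1r2, the decoy receptor, was above background in 10 of 11 LPS-injected mice and in none of the saline-injected mice. It stood at a lowest of 52.6, a median of 68.5 and a highest of 92.4 in the Dox+LPS mice, against 14.7, 9.60, 9.26 and 11.7 in the Dox mice, with no overlap. The LPS mice had 60.8, 70.3, 18.8, 89.8 and 76.4, against a lowest of 5.83, a median of 10.5 and a highest of 20.7 in the Untreated mice. In that pair 1 mouse, LPS replicate 3, fell among the Untreated values and was not above background, while the other 4 LPS mice lay clear of them. Without LPS replicate 3 the fitted log2 fold change was 2.64, against 2.41 with it (SE 0.28, adjusted p = 1.2e-07, edgeR). In Dox+LPS against Dox it was 2.59 (SE 0.35, adjusted p = 1.1e-06, edgeR). As no saline-injected mouse was above background, the lower limit was at least 3.12-fold higher in Dox+LPS than in Dox mice. The mean of the LPS mice was 3.14 times the mean background of the Untreated mice, with LPS replicate 3, itself under background, included.

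Il1rn, the receptor antagonist, was under background in all saline-injected mice too, and it spread widely among dox-treated mice after LPS. The 6 Dox+LPS mice had 118, 24.8, 24.3, 44.7, 45.7 and 19.3, against 9.04, 3.20, 4.12 and 5.33 in the Dox mice. The LPS mice had 22.0, 24.7, 16.7, 22.0 and 22.8, of which 3 were above background, against a lowest of 3.04, a median of 4.55 and a highest of 12.7 in the Untreated mice. The highest Dox+LPS mouse, replicate 1 again, reached 118, and the other 5 lay between 19.3 and 45.7. Neither pair of groups overlapped. The fitted log2 fold change was 3.05 in Dox+LPS against Dox (SE 0.54, adjusted p = 3.8e-05, edgeR), or 2.52 without that mouse, and 1.62 in LPS against Untreated (SE 0.46, adjusted p = 0.00474, edgeR). Against the background of the saline-injected mice Il1rn was at least 2.10-fold higher in Dox+LPS than in Dox mice, with replicate 1 included. The mean of the LPS mice was 1.08 times the mean background of the Untreated mice. As only 3 of the 5 LPS mice were above their own background, this is no lower limit. In the LPS mice Il1rn was only just measurable.

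Counted by overlap, 5 of 7 members were higher in every Dox+LPS mouse than in any Dox mouse, where 18.6% of all genes were, and 1, Il1rap, was lower in every mouse, where 21.6% were. In LPS against Untreated 4 of 7 were higher in every mouse, where 13.6% of genes were, and none was lower in every mouse, where 13.1% were. Il1r2 and Il1rap separated the first pair but not the second, Il1r2 through LPS replicate 3. These counts include genes under background in every saline-injected mouse, Il1b, Il1r2 and Il1rn in the first pair and Il1b and Il1rn in the second. Il1rn was above background in only 3 of the 5 LPS mice, so its separation there is partly between unmeasured values.

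**Figure D2:**
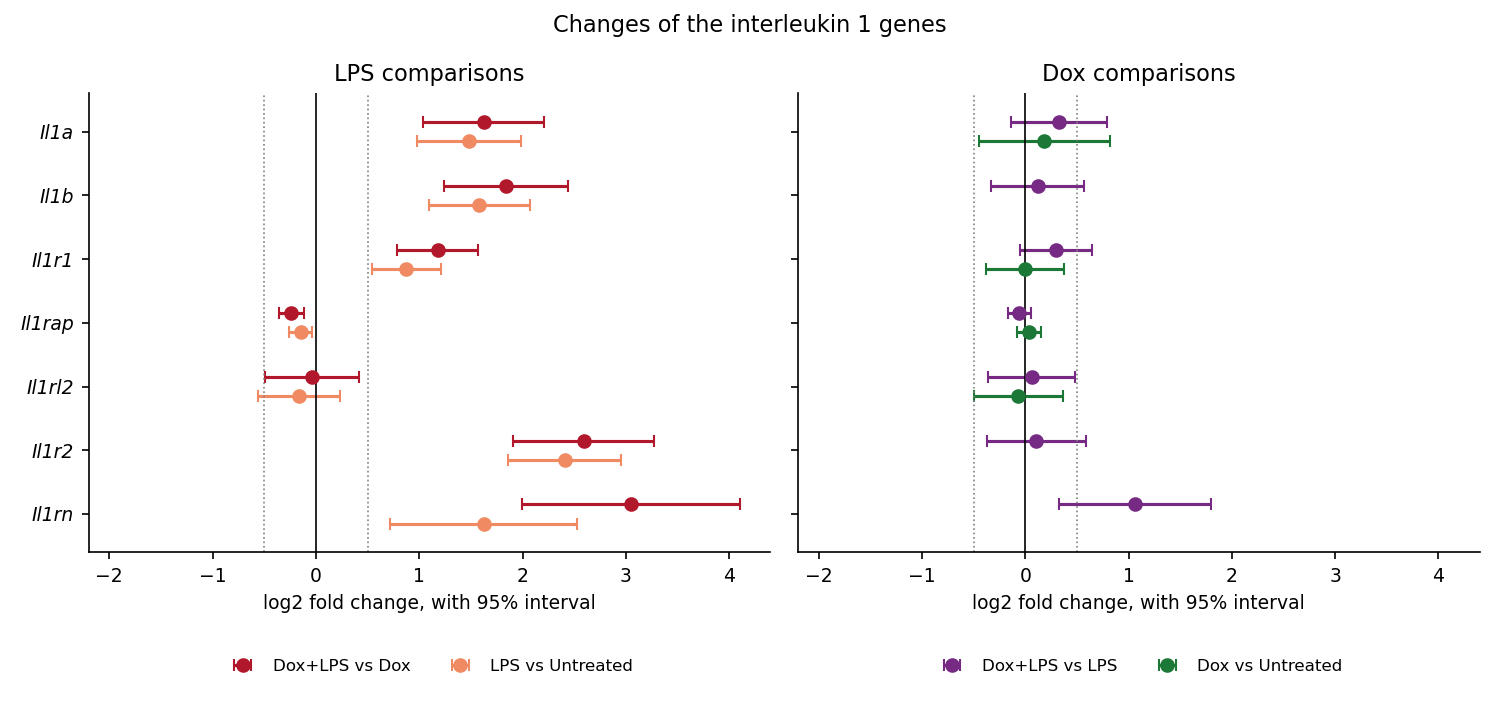
Log2 fold changes of the 7 genes (x axis) with 95% intervals as bars. The left panel shows Dox+LPS vs Dox and LPS vs Untreated, the right panel Dox+LPS vs LPS and Dox vs Untreated, and dotted lines mark the fold threshold of 0.5. On the left 5 genes lie beyond the threshold in both comparisons, those of Il1b, Il1r2 and Il1rn being fitted against saline-injected mice under background. On the right none was called, and these 3 genes are left out of Dox vs Untreated.

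The agonists were set against the decoy receptor and the receptor antagonist through ratios within each mouse, in which the scaling cancels. Only the difference of a log2 ratio (pseudocount 1) between groups was read. Of 24 possible comparisons 18 were tested, those in which each gene was above background in at least 50% of the mice of 1 of the groups, and none of the 18 passed an adjusted p of 0.05 in two-sided exact permutation tests, with 3 at an unadjusted p under 0.05. In 12 of the 18, which set LPS-injected against saline-injected mice, Il1b, Il1r2 or Il1rn was under background in every saline-injected mouse, and these include the 3. The saline-injected side of these 12 holds no measured ratio, so neither their size nor their direction is read. With counts under background set to the background, 4 of them passed the adjustment, and 2 of these 4, Il1rn over Il1a in LPS against Untreated and Il1b over Il1a in Dox+LPS against Dox, then had the opposite sign.

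For the decoy receptor over the signalling receptor a limit can be given, as Il1r1 was above background in all 23 mice and Il1r2 in all 6 Dox+LPS mice. With Il1r2 at background in the Dox mice, the log2 ratio of Il1r2 over Il1r1 was higher by at least 0.50 in Dox+LPS than in Dox mice, which did not pass the test (exact permutation p = 0.0667, adjusted p = 0.240).

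After LPS both sides of the ratios were measured in most mice, and the 6 ratios were compared between Dox+LPS and LPS mice. The log2 ratio of Il1r2 over Il1r1 had a lowest of -2.22, a median of -1.48 and a highest of -0.88 in the Dox+LPS mice, against -1.51, -1.21, -2.93, -0.57 and -1.28 in the LPS mice. The mean difference was 0.01 (exact permutation p = 0.974), and the lowest LPS value was that of replicate 3, whose Il1r2 was under background. Against the agonists the decoy receptor differed by -0.04 over Il1a and by 0.13 over Il1b (exact permutation p = 0.978 and 0.749), with the groups overlapping.

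The receptor antagonist spread more widely beside the agonists in the Dox+LPS mice. Its log2 ratio over Il1b averaged -0.15 ± 0.85 in the Dox+LPS mice and -0.80 ± 0.33 in the LPS mice (SD), a difference of 0.66 (exact permutation p = 0.113, adjusted p = 0.405), or 0.38 without Dox+LPS replicate 1. Over Il1a it averaged -0.62 ± 0.85 in the Dox+LPS mice and -1.10 ± 0.33 in the LPS mice (SD), a difference of 0.48 (exact permutation p = 0.299, adjusted p = 0.521), or 0.23 without Dox+LPS replicate 1. Il1rn was under background in 2 of the 5 LPS mice. Between the agonists, Il1b over Il1a averaged -0.47 ± 0.29 in the Dox+LPS mice and -0.30 ± 0.23 in the LPS mice (SD), a difference of -0.17 (exact permutation p = 0.299, adjusted p = 0.521). In all 6 ratios the groups overlapped.

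**Figure D3:**
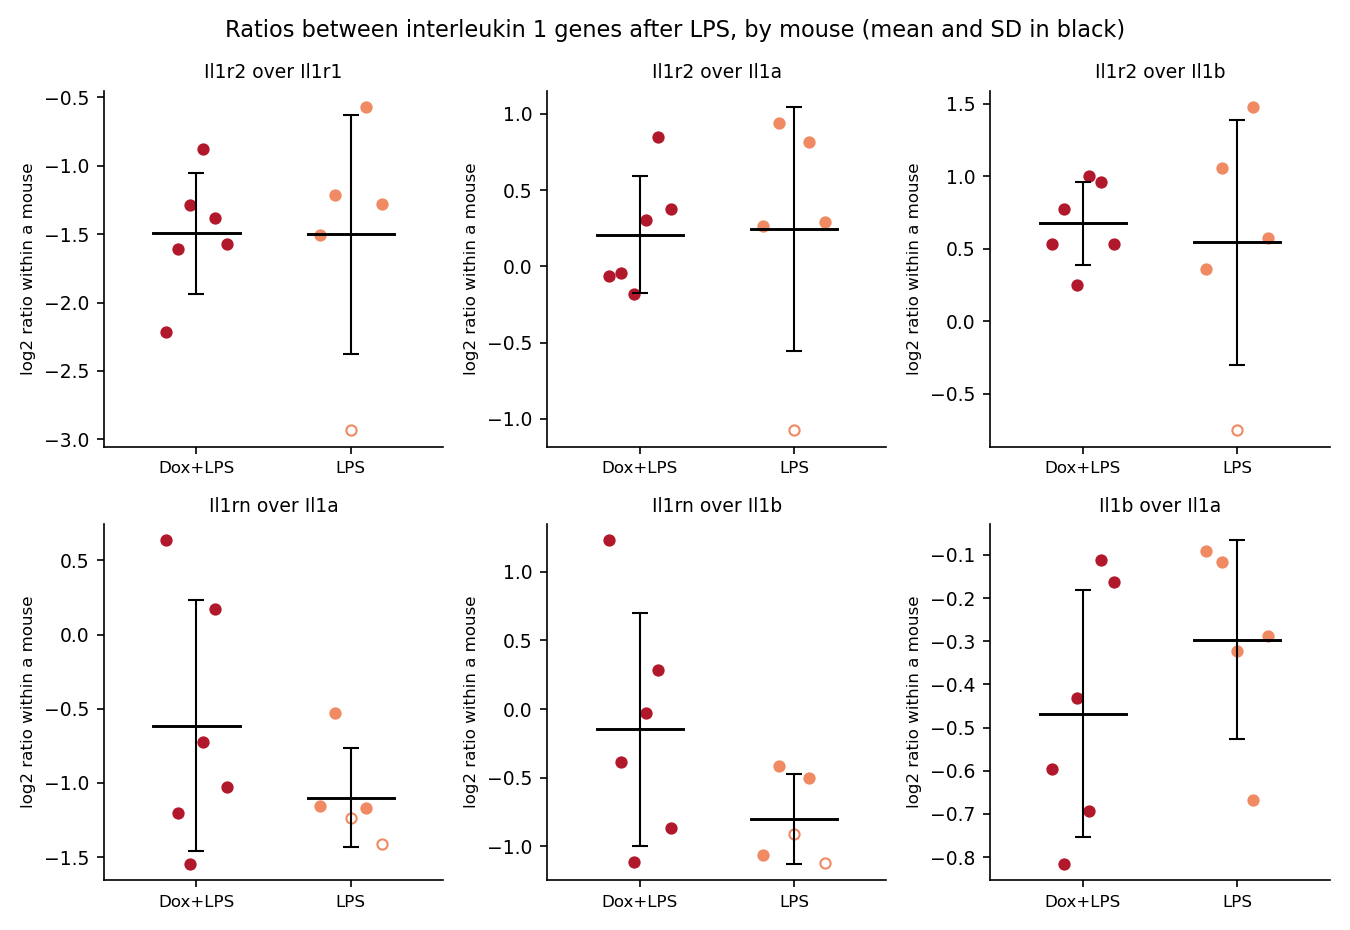
Log2 ratios between pairs of interleukin 1 genes within each Dox+LPS and LPS mouse (y axis, pseudocount 1), with the mean and SD in black. Open points are mice in which a gene of the ratio was not above background, and the groups overlap in all 6 panels, with LPS replicate 3 at -2.93 for Il1r2 over Il1r1.

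Prior dox treatment changed no member past the threshold. In Dox against Untreated mice 0 of 7 members and 0 of 770 genes were called by edgeR, and 5.32% of all genes but none of the members had an unadjusted p under 0.05. The mean Il1a was 19.4 ± 5.44 in the Dox mice and 17.0 ± 8.89 in the Untreated mice, and Il1r1 88.1 ± 8.06 in the Dox mice and 88.4 ± 19.1 in the Untreated mice (SD). The 95% interval of the log2 fold change was narrow for Il1rap (-0.08 to 0.15) and wider for Il1r1 (-0.38 to 0.37) and Il1rl2 (-0.50 to 0.36). For Il1a it ran from -0.45 to 0.82, and for Il1b, Il1r2 and Il1rn both groups were under background, so no fold is given.

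Among LPS-injected mice, Dox+LPS against LPS, again 0 of 7 members and 0 of 770 genes were called, with 13.2% of all genes and 1 member, Il1rn, at an unadjusted p under 0.05. DESeq2 called 2 genes there and RUVg with 1 factor 1 gene, none of them a member, and limma-voom called none. Il1rn averaged 46.2 ± 37.1 in the Dox+LPS mice and 21.7 ± 2.96 in the LPS mice (SD), a log2 fold change of 1.06 (SE 0.37, 95% interval 0.33 to 1.79, adjusted p = 0.251, edgeR). The groups overlapped. The 3 Dox+LPS mice at 44.7 or above were the 3 males, and the 3 females lay between 19.3 and 24.8, against 16.7 to 24.7 in the 3 males and 22.0 and 22.8 in the 2 females of the LPS group. This split by sex was seen after the values and was not tested. With a sex term the log2 fold change was 1.04 (adjusted p = 0.229, edgeR). Leaving out Dox+LPS replicate 1 lowered the log2 fold change to 0.53. Il1r1 showed the same dependence, with a log2 fold change of 0.30 (95% interval -0.05 to 0.64) with that mouse and 0.08 without it.

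The remaining members lay closer together in the LPS-injected groups. The 95% interval of the log2 fold change in Dox+LPS against LPS ran from -0.14 to 0.79 for Il1a, from -0.33 to 0.57 for Il1b and from -0.37 to 0.59 for Il1r2. It ran from -0.17 to 0.06 for Il1rap and from -0.36 to 0.48 for Il1rl2. The interaction, which tests whether the response to LPS itself differed with dox, called none of the 770 genes, with 8.96% of them and no member at an unadjusted p under 0.05. The 95% interval of the interaction ran from -0.65 to 0.94 on the log2 scale for Il1a, from -0.21 to 0.82 for Il1r1, from -0.25 to 0.07 for Il1rap and from -0.47 to 0.73 for Il1rl2. For Il1b, Il1r2 and Il1rn it rests on saline-injected mice under background, and no size is given. The dox-treated mice were read in later lanes than the dox-untreated mice, lanes 7 to 12 against 1 to 6 after LPS and lanes 9 to 12 against 1 to 8 after saline, so lane and dox cannot be told apart.

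Dox+LPS replicate 1, a male, was high in more than the antagonist. Genes were ranked by the distance of this mouse above the median of the other 5 Dox+LPS mice, over 682 genes. Numbers 1 and 2 were the Y-linked Kdm5d and Uty, 3 of the other 5 mice being female, Il1rn was number 3 and Il1r1 number 21. Between them, number 4 was Ttr, the thyroid hormone carrier made by choroid plexus, at 1988 (366 to 1753 in the other 5 mice), number 5 Ptx3, a secreted pentraxin of innate immunity, at 117 (26.1 to 76.5), and number 6 Steap4, a metalloreductase induced by inflammation, at 369 (103 to 192). The values of Ptx3 and Steap4 were also the highest of all 23 mice. These genes were named after their values were seen. Of the other members, Il1a at 75.8 (40.3 to 74.5 in the other 5 mice) was highest in this mouse too. So were Il1rap at 488 (432 to 485) and Il1rl2 at 30.1 (16.9 to 24.8). Its Il1r2 of 72.7 and Il1b of 49.9 lay inside the range of its group. In the same mouse the summed level of 9 microglial markers was 1804, against 2731 to 3323 in the other 5. That of 6 endothelial markers was 1745, against 2334 to 2617. That of 6 markers of monocytes and border macrophages was 2745, against 3402 to 3716. Its astrocytic sum, 14519, was the lowest of the group, and its neuronal and oligodendrocyte sums, 41048 and 28244, were the highest. The part of these cell types in the Il1rn and Il1r1 values was not tested.

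**Figure D4:**
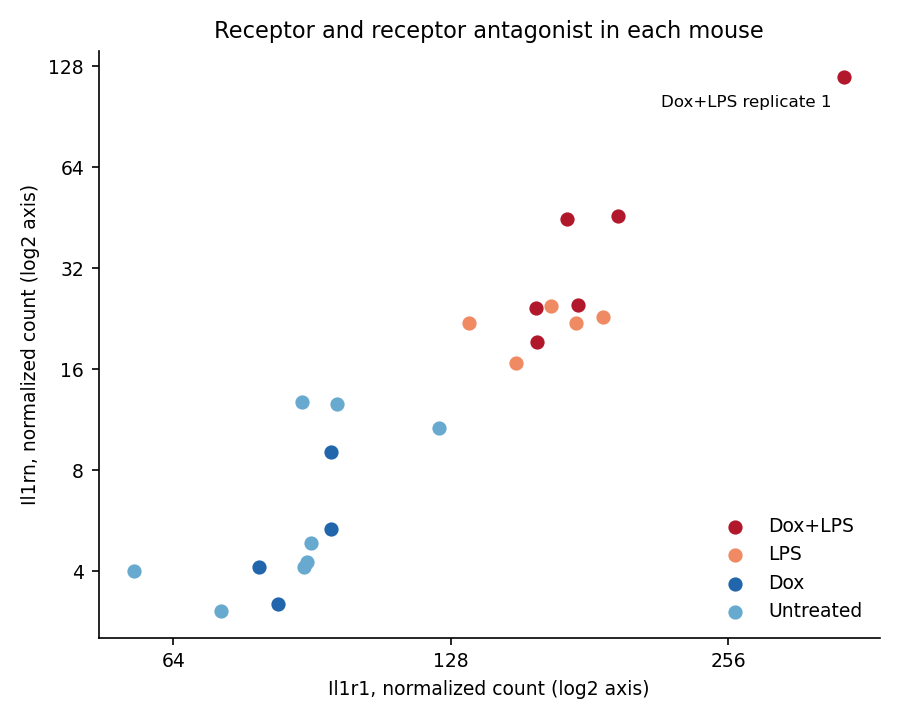
Il1r1 (x axis) and Il1rn (y axis) in each of the 23 mice, as normalized counts on log2 axes, colored by group. Dox+LPS replicate 1 lies apart at 342 and 118, and all Dox and Untreated values of Il1rn are under background.

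The genes whose pattern over the 23 mice was most like that of a member were found by Pearson's r of log2 normalized counts, for the 4 members above background in at least 50% of mice. As LPS-injected and saline-injected mice differ in many genes, r is also given within each. For Il1a the nearest were Gpr84 (r = 0.91, or 0.68 within the 11 LPS-injected and 0.51 within the 12 saline-injected mice), C3ar1 (0.91, 0.18 and 0.75) and Fcgr3 (0.90, 0.48 and 0.62), receptors for medium-chain fatty acids, complement C3a and IgG. For Il1r1 they were Steap4 (0.95, 0.81 and 0.70), Il1rn (0.94 and, within the LPS-injected mice, 0.88) and Fkbp5, a glucocorticoid-induced chaperone (0.93, 0.82 and 0.44). Within the LPS-injected mice but without Dox+LPS replicate 1, the r of Il1r1 was 0.54 with Il1rn and 0.67 with Steap4. All saline-injected values of Il1rn, which enter the r over 23 mice, are under background. For Il1rap they were Kdm2a (0.85, 0.32 and 0.83), Tfg (0.83, 0.67 and 0.71) and Camk4, a neuronal kinase (0.82, 0.57 and 0.76), and for Il1rl2 Chst8 (0.66, 0.76 and 0.14), Wdr5 (0.63, 0.76 and 0.19) and Ctse (0.54, 0.65 and 0.02).

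Of the genes that process interleukin 1, 6 of 13 were measured, of which 2 were called higher in each LPS comparison and none lower, where 19.5% of all genes were called higher in Dox+LPS against Dox and 16.8% in LPS against Untreated. Casp4, the mouse gene of caspase-11 that senses LPS in the cytosol, ran from 52.1 to 86.2 in the Dox+LPS mice, against 5.33 to 10.3 in the Dox mice, all 4 under background. It ran from 36.6 to 54.5 in the LPS mice, against 8.03 to 24.3 in the Untreated mice, of which 1 was above background. It was at least 3.01-fold higher in Dox+LPS than in Dox mice, and its fitted log2 fold change was 1.71 (SE 0.18) in LPS against Untreated. Nlrp3, the inflammasome sensor upstream of caspase-1, rose by 1.02 on the log2 scale in Dox+LPS against Dox (SE 0.19, adjusted p = 9.9e-05, edgeR) and by 0.83 in LPS against Untreated (SE 0.17, adjusted p = 0.00023, edgeR). P2rx7, the ATP-gated channel that triggers that inflammasome, had log2 fold changes of -0.36 in Dox+LPS against Dox and -0.32 in LPS against Untreated, inside the fold threshold. The median log2 fold change of the 6 genes was 0.49 in Dox+LPS against Dox and 0.42 in LPS against Untreated, or 0.25 and 0.41 with genes under background in all mice of the saline-injected group at their lower limits.

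Of the genes that carry the receptor's signal 20 of 31 were measured, of which 7 were called higher in Dox+LPS against Dox and 4 in LPS against Untreated, beside the same 19.5% and 16.8% of all genes, and none lower. The median log2 fold change of the 20 was 0.12 in Dox+LPS against Dox and 0.08 in LPS against Untreated. Myd88, the adaptor, ran from 121 to 168 in the Dox+LPS mice, against 52.2 to 78.9 in the Dox mice, and from 107 to 143 in the LPS mice, against 65.1 to 85.0 in the Untreated mice. Nfkb2, an NF-kB subunit precursor, had log2 fold changes of 1.67 (SE 0.15) in Dox+LPS against Dox and 1.37 (SE 0.13) in LPS against Untreated, and Nfkbia, the NF-kB inhibitor that NF-kB itself induces, of 1.07 (SE 0.18) and 0.96 (SE 0.16). Irak3, an inhibitory kinase of the pathway, was the fourth gene called in both, and Irak4, Nfkbie and Ripk1 were called in Dox+LPS against Dox, all 4 being named after their values were seen.

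Of the genes known to be induced by interleukin 1, 13 of the 28 listed were measured. All 13 were called higher in both LPS comparisons, beside 19.5% of all genes in Dox+LPS against Dox and 16.8% in LPS against Untreated. Their median log2 fold change was 2.87 in Dox+LPS against Dox and 2.18 in LPS against Untreated, or 2.47 and 2.18 with genes under background in all mice of the saline-injected group at their lower limits. Timp1, an inhibitor of metalloproteinases, ran from 277 to 411 in the Dox+LPS mice, against 4.12 to 14.7 in the Dox mice, and from 62.8 to 380 in the LPS mice, against 7.43 to 20.0 in the Untreated mice. Timp1 was above background in 0 of 4 Dox and 1 of 8 Untreated mice. On the log2 scale Serpina3n, a serine protease inhibitor of reactive astrocytes, rose by 2.47 (SE 0.20) in Dox+LPS against Dox and 2.18 (SE 0.16) in LPS against Untreated. The fitted values of Ccl2, the monocyte chemoattractant, were 4.11 (SE 0.34) and 3.51 (SE 0.27). Ccl2 was above background in only 1 of 4 Dox and 3 of 8 Untreated mice, so these sizes rest mostly on values under background. LPS and other cytokines induce these genes as well, so the list is no measure of interleukin 1 activity. In Dox+LPS against LPS and in Dox against Untreated no gene of these lists was called. None of the 17 other interleukin 1 family cytokines and receptors listed, such as Il18 and Il33, was on the panel.

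Markers of cell types that can carry interleukin 1 genes moved with the same comparisons. The shares of all genes called, given above, were 19.5% higher and 7.01% lower in Dox+LPS against Dox, and 16.8% higher and 5.97% lower in LPS against Untreated. Of 6 markers of monocytes and border macrophages, 5 were called higher in each LPS comparison, with summed levels of 2745 to 3716 in the Dox+LPS mice against 676 to 788 in the Dox mice, and 2575 to 4157 in the LPS mice against 575 to 1388 in the Untreated mice. Most of these sums is Ly6a, which endothelium also expresses and interferon induces, at 2176 to 3108 in the Dox+LPS mice against 614 to 703 in the Dox mice, and 2343 to 3072 in the LPS mice against 483 to 1284 in the Untreated mice. Ccr2, which marks blood monocytes, was above background in 1 of 11 LPS-injected and 1 of 12 saline-injected mice. Of 7 neutrophil markers 4 were called higher in each comparison, with sums of 402 to 480 in the Dox+LPS mice against 159 to 188 in the Dox mice, and 272 to 443 in the LPS mice against 152 to 208 in the Untreated mice. Ly6g, the defining neutrophil marker, was under background in all 23 mice, and Hcar2 and Ncf1, which microglia and macrophages express too, were among those called higher. LPS replicate 3, the mouse with little Il1r2, had the lowest neutrophil and monocyte sums of its group, 272 and 2575. It also had the highest neuronal, astrocytic and oligodendrocyte sums of that group, 43971, 15677 and 26180. This mouse was looked at after its values were seen.

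Of 9 microglial markers 6 were called lower in Dox+LPS against Dox, with sums of 1804 to 3323 against 4373 to 4493, and 5 in LPS against Untreated, with sums of 2645 to 3621 against 4080 to 4780. Of 6 endothelial markers 2 were called higher in Dox+LPS against Dox and 1 in LPS against Untreated. Of 14 markers of T, B and NK cells 3 were above background in any mouse and none was called. Neuronal, astrocytic and oligodendrocyte markers were abundant in all groups, as in cortex. Of 9 oligodendrocyte markers 5 were called lower in each LPS comparison. Of 7 neuronal markers 1, Tubb3, was called lower in Dox+LPS against Dox and none in LPS against Untreated, with sums of 37097 to 41048 in the Dox+LPS mice against 43489 to 50824 in the Dox mice, and 40330 to 43971 in the LPS mice against 45263 to 51610 in the Untreated mice. Of 5 astrocytic markers 1, Aldh1l1, was called higher in LPS against Untreated and none in Dox+LPS against Dox. The part of these cell types in the interleukin 1 values was not tested.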

How the data were processed

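Total RNA from frozen cortex was hybridized to the nCounter panel, whose barcoded probes are counted molecule by molecule with no amplification step. The authors deposited the counts as exported from the instrument, with no normalization. The deposited columns are handled here under the unit of estimated counts only because rows above the probes hold decimals, and every probe value is a whole count. The table has 1 further column that matched no labelled mouse, which was not used. The series value table the authors also deposited was not used here. Genome build and aligner do not apply to probe counts.

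Groups follow the labels. For the 770 genes, upper quartile scaling was followed by the quasi-likelihood test (edgeR 4.0.16, R 4.3.3) over all 23 mice, with a mean per group and Benjamini-Hochberg adjustment over the 770 genes. The submitters' processing notes name edgeR 3.38.4. A standard error is the log2 fold change divided by the square root of F, and a 95% interval is 1.96 of them on each side, an approximation. Where all mice of the saline-injected group were under background, a fold is a lower limit, the mean of the other group over the mean background of that group. It is no strict limit where mice of the other group were under background too. Ratio tests used Python scipy 1.17.1 and were adjusted over the 18 tests. Labels do not say whether littermates were used, and each mouse counted as 1 replicate.

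The members, gene lists and markers were chosen with earlier results of these data known. Genes named are the members, up to 3 genes per pathway list with the smallest p in either LPS comparison and the 3 genes most like each member in pattern. The alternatives tried were DESeq2 1.42.0, voom with limma 3.58.1, edgeR's likelihood ratio test, scaling by TMM, by RLE, by housekeeping genes and by positive controls, RUVg with 1 or 2 factors, a low count filter, subtraction of background, a sex term, each mouse left out, and for ratios a pseudocount of 5 and a floor at background. Untreated replicates 6, 7 and 8, whose mouse numbers lie far from those of all other mice, were also left out together. So were LPS replicate 3 and Untreated replicate 3. The test was tried on simulated data before use.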

Additional observations from a re-analysis of the deposited data

Results flagged for a closer look

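Il1r1 in Dox+LPS replicate 1 was 341.8, against 158.1 to 194.3 in the other 5 Dox+LPS mice, a gap to the nearest mouse of 0.80 of the group's range where 0.625 is the critical value for 6 mice. Il1rn in the same mouse was 118.4, against 19.3 to 45.7 in the others, a gap of 0.73 of the range. Of 28 sets of a gene and a group these 2 had a sample far from the others, and chance gives such a gap in about 1 of 20 sets. The mouse was kept in every comparison. Log2 fold changes of Il1r1 and Il1rn, and the ratios of Il1rn to the agonists against LPS mice, are also given above without it. Other values, such as the lower limits and the interaction, are given only with it.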

How the results depend on the processing

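The number of members called was 5 in both LPS comparisons and 0 in both dox comparisons and in the interaction under all 37 alternatives, and no call of a single member changed. The size of the log2 fold changes did. With the mean of the negative controls subtracted, Il1rn had 8.18 in Dox+LPS against Dox and 3.76 in LPS against Untreated, Il1r2 5.09 and 4.13, Il1b 3.56 and 2.77, and Il1a 2.43 and 2.29. Every Dox count of Il1rn lay under that mean and became 0, so the 8.18 measures no size. Il1b, Il1r2 and Il1rn were under background in all saline-injected mice, so none of their subtracted values is read as a size. Leaving out each mouse in turn gave 2.52 to 3.39 and 1.51 to 1.80 for Il1rn, and 2.49 to 2.74 and 2.25 to 2.64 for Il1r2. In Dox+LPS against LPS, Il1rn ran from 0.53 to 1.22 over the mice left out, and Il1r1 from 0.08 to 0.36, the lowest in each being without Dox+LPS replicate 1. Il1rap had adjusted p values (edgeR and the other tools) from 0.00046 to 0.237 in Dox+LPS against Dox and from 0.00746 to 0.778 in LPS against Untreated, the highest with positive control scaling.

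Ratios were sensitive to the treatment of counts under background. With these set to the background, Il1rn over Il1a was -0.91 in LPS against Untreated, against 0.09 without the floor, and Il1rn over Il1b was -0.75, both with an exact permutation adjusted p of 0.0280. In Dox+LPS against Dox, Il1b over Il1a was then -0.43, against 0.26 without the floor, and Il1r2 over Il1b 0.69, both with an exact permutation adjusted p of 0.0429. A floor raises the saline-injected values of the lower gene most, by its construction. Il1r2 over Il1r1 stayed positive under all alternatives, from 0.50 to 3.60 in Dox+LPS against Dox and from 0.60 to 3.10 in LPS against Untreated, and never passed the adjustment, its saline-injected side being under background throughout. The 6 ratios between Dox+LPS and LPS mice passed it under none of the alternatives. No paired analysis was possible because the mouse numbers do not pair mice across groups.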
